A study of Mus musculus with 8 samples.

Results

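A set of 6 genes of cyclic GMP (cGMP) signalling were followed in pancreatic islets of obese ob/ob mice and of ob/+ mice: the receptor guanylate cyclases Gucy2c, Npr1 and Npr2, the peptide ligands Guca2a and Guca2b, and the cGMP-dependent protein kinase Prkg1. These 6 genes were picked by name, with the ob/ob against ob/+ difference already known, out of 20715 genes listed. Their levels in the 2 genotypes are therefore given as a description, without a test. Of the 6 genes, 5 had values; Guca2b was listed without a value in every library. Only Gucy2c, Npr1 and Npr2 reached 1 FPKM (a level scaled to transcript length and to the library's mapped fragments) in at least 4 libraries, the filter for modelling.

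The data are RNA profiles of hand-picked islets from C57BL/6 mice aged 12 weeks, with 4 libraries of genotype ob/+ and 4 of genotype ob/ob. Both groups carry the ob mutation of Lep, the gene of leptin, on at least 1 chromosome copy, so the ob/+ group is heterozygous, not wild type. The genotypes were set against each other to see how islet transcription differs in obese mice. The labels do not say whether each library is a separate mouse or a pool, so the spread between libraries may be in part technical. In whole islets, fewer cells of a type and less RNA per cell cannot be told apart.

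Guanylate cyclases make cGMP from GTP. The membrane-bound receptors do so when a peptide binds outside the cell: GUCY2C, known from the intestinal epithelium, binds guanylin (GUCA2A) and uroguanylin (GUCA2B), while NPR1 binds the atrial and B-type natriuretic peptides and NPR2 the C-type peptide. Soluble cyclases are instead switched on by nitric oxide. The cGMP made acts through kinases such as PRKG1, through ion channels and through phosphodiesterases, which also break it down.

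In the GRCm38 gene annotation, Gucy2c (ENSMUSG00000042638) spans chr6:136697284-136781765 on the minus strand. Npr1 lies at chr3:90450591-90465866 (minus strand), Npr2 at chr4:43631935-43651244 (plus strand) and Prkg1 at chr19:30564489-31765033 (minus strand). The ligand genes are neighbours: Guca2a spans chr4:119637704-119639471 (plus strand) and Guca2b chr4:119656607-119658954 (minus strand), with 17135 bases between them.

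RefSeq promoter windows of build GRCm38.p6 were matched for 5 of the 6 genes, Gucy2c not among them. The 250 bases before the RefSeq start are shown for the 2 ligand genes and for Npr1, because their content of CG dinucleotides differs widely. Guca2a was at or near 0, Guca2b had no value and Npr1 was transcribed in every library. CG dinucleotides are in capitals. The windows are chr4:119637482-119637731 (plus strand) for Guca2a, chr4:119658946-119659195 (minus strand) for Guca2b and chr3:90465867-90466116 (minus strand) for Npr1. For Guca2a and Guca2b the start in the gene annotation above differs from the RefSeq start and lies inside the window.
Guca2a: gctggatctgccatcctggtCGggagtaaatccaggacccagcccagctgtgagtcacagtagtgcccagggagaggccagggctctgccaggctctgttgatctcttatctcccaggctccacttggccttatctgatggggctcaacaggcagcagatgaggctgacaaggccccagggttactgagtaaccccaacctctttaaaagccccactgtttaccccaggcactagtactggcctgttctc
Guca2b: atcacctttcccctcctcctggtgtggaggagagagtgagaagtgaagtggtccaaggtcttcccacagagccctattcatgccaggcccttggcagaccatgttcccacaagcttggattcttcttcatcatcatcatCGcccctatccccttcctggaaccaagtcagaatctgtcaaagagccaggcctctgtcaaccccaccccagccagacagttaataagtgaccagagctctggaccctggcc
Npr1: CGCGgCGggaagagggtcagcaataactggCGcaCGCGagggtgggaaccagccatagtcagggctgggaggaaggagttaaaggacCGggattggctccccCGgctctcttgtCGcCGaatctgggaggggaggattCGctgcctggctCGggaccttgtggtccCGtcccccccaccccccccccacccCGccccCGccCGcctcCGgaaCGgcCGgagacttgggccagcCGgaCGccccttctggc
The Guca2a and Guca2b windows hold 1 CG each, and 18.8% of 32851 promoters hold as few or fewer. The Npr1 window holds 21 CG, more than 83.7% of promoters, against a median of 6. Npr2 has 13 CG, and the 2 Prkg1 windows have 16 and 9, with Prkg1 below 1 FPKM in every library. Of 5 motifs searched on both strands, TGTTTAC occurs in the Guca2a window (3.17% of promoters hold it) and GTTAAT in the Guca2b window (6.43% of promoters); neither occurs in the windows of Npr1, Npr2 or Prkg1. CAAAG, held by 48.6% of promoters, occurs in the windows of Guca2b and Npr2 and in 1 of the 2 Prkg1 windows. TATAA (22.8% of promoters) and TTTATNG (9.81%) occur in none of these windows. Across genes, which are not independent replicates, 25.0% of 1963 genes with at most 3 CG and 85.5% of 4281 genes with at least 20 CG had a mean of 1 FPKM or more in these islets. A letter match is a description of the window only.

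Some features of the whole libraries touch these values. The FPKM of all genes added up to 820967.7 to 880570.0 per ob/+ library and 920733.9 to 1004230.4 per ob/ob library, and 11363 to 11883 genes per library reached 1 FPKM. Absolute depth is unknown. The fourth ob/+ library stood apart: genes of acinar cells, the enzyme-making cells around islets, took 18.3% of its summed FPKM, against 5.41 to 9.78% in the other ob/+ libraries and 2.5 to 8.61% in ob/ob. It also had the lowest ob/+ value of Gucy2c, Npr1, Npr2 and Prkg1. Lep itself was listed without a value in all 8 libraries, so it gives no check of the genotype labels. The islet origin fits its markers: genes of the beta cell list took 45.2 to 58.4% of summed FPKM in ob/+ and 62.0 to 70.7% in ob/ob. Ins1, Ins2 and Iapp carry most of this share; of the 12 beta markers 2 rose (Ins2 and Iapp) and 5 fell (Mafa, Slc2a2, Ucn3, Slc30a8 and Trpm5), with a median log2 difference of -0.39.

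Gucy2c, the guanylin receptor, was the member with the widest gap between genotypes. Its level was 5.92, 5.94, 5.13 and 3.86 FPKM in ob/+ libraries 1 to 4 and 27.94, 28.88, 33.95 and 30.82 FPKM in ob/ob libraries 1 to 4. Every ob/ob library was above every ob/+ library, and the lowest ob/+ value was the acinar-rich library. The mean was 5.21 ± 0.977 FPKM in ob/+ and 30.4 ± 2.66 FPKM in ob/ob (SD, n = 4 each), a 5.83-fold higher level in ob/ob. Without the fourth ob/+ library the ratio was 5.37. On the log2(FPKM + 1) scale the difference was 2.35 with an SE of 0.13. From the highest, this difference ranked 20 among the 11747 genes that passed the filter. The mean Gucy2c level over all 8 libraries lay above that of 83.8% of the 17401 genes with a value.

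Npr1, the receptor of atrial and B-type natriuretic peptides, was lower in ob/ob. Its level was 6.55, 6.38, 6.10 and 4.95 FPKM in ob/+ and 3.80, 4.83, 3.94 and 2.53 FPKM in ob/ob. The groups did not overlap, although the lowest ob/+ and the highest ob/ob library were close together. The mean was 6.00 ± 0.721 FPKM in ob/+ and 3.78 ± 0.947 FPKM in ob/ob (SD, n = 4 each), 1.59-fold higher in ob/+. The difference on the log2(FPKM + 1) scale was -0.57 (SE 0.14).

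Npr2, the receptor of the C-type natriuretic peptide, had overlapping groups. Its level was 8.07, 7.85, 9.80 and 6.03 FPKM in ob/+ and 5.84, 5.91, 8.09 and 5.54 FPKM in ob/ob. The third library of ob/ob was above 3 of the 4 ob/+ libraries. The mean was 7.94 ± 1.54 FPKM in ob/+ and 6.35 ± 1.17 FPKM in ob/ob (SD, n = 4 each), and the log2 difference was -0.28 (SE 0.14).

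Of the guanylin ligand genes only Guca2a had values, at or near 0 in islets of both genotypes. Guca2a had a value of 0.33 FPKM in the second ob/+ library and 0 in the other 7 libraries. Guca2b had no value in any library. No fold is given for either gene. As the files carry no counts, no limit of detection can be stated.

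Prkg1, the kinase that phosphorylates proteins in response to cGMP and is known from smooth muscle, was low throughout. Its level was 0.65, 0.70, 0.60 and 0.55 FPKM in ob/+ and 0.40, 0.46, 0.45 and 0.38 FPKM in ob/ob. The groups did not overlap. The mean was 0.625 ± 0.0646 FPKM in ob/+ and 0.423 ± 0.0386 FPKM in ob/ob (SD, n = 4 each), 1.48-fold higher in ob/+. Prkg1 lay below the filter and was not modelled. Among the 5 members with values, Gucy2c, Npr1 and Prkg1 had groups that did not overlap. Over all 17401 genes with a value this holds for 18.0%, and nothing is read from the members' count because they were picked with the contrast known.

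**Figure D1:**
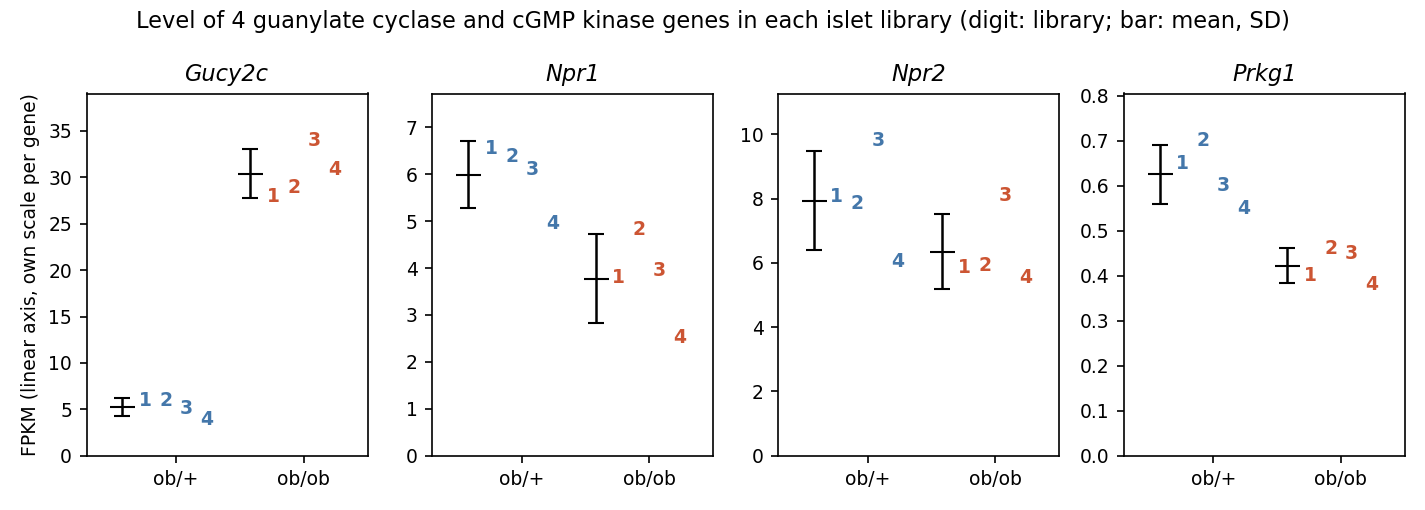
FPKM (linear axis, own scale for each gene) of Gucy2c, Npr1, Npr2 and Prkg1 in the 4 ob/+ and 4 ob/ob libraries; each digit is 1 library by its replicate number, and the bar beside the digits is the mean with SD. The ob/ob libraries lie between 27.94 and 33.95 FPKM for Gucy2c, against 3.86 to 5.94 in ob/+, while Npr1 and Prkg1 lie lower in ob/ob and the Npr2 groups overlap.

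The order of the receptors by level differed between genotypes. In ob/+ the order of mean FPKM was Npr2, Npr1, Gucy2c and Prkg1, and the ranges of each neighbouring pair among the 3 receptors overlapped. In ob/ob the order was Gucy2c, Npr2, Npr1 and Prkg1, and no neighbouring ranges overlapped.

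Ratios within a library do not depend on its scaling. The Gucy2c level divided by that of Npr1 was 0.864 ± 0.0676 in ob/+ (range 0.780 to 0.931) and 8.53 ± 2.66 in ob/ob (5.98 to 12.2; SD, n = 4 each). Gucy2c over Npr2 was 0.664 ± 0.106 in ob/+ (0.524 to 0.757) and 4.86 ± 0.560 in ob/ob (4.20 to 5.56). In every ob/+ library Gucy2c was thus the lowest of the 3 receptors, and in every ob/ob library the highest. Npr1 over Npr2 was 0.767 ± 0.0964 in ob/+ and 0.603 ± 0.166 in ob/ob, with overlapping ranges of 0.622 to 0.821 and 0.457 to 0.817.

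**Figure D2:**
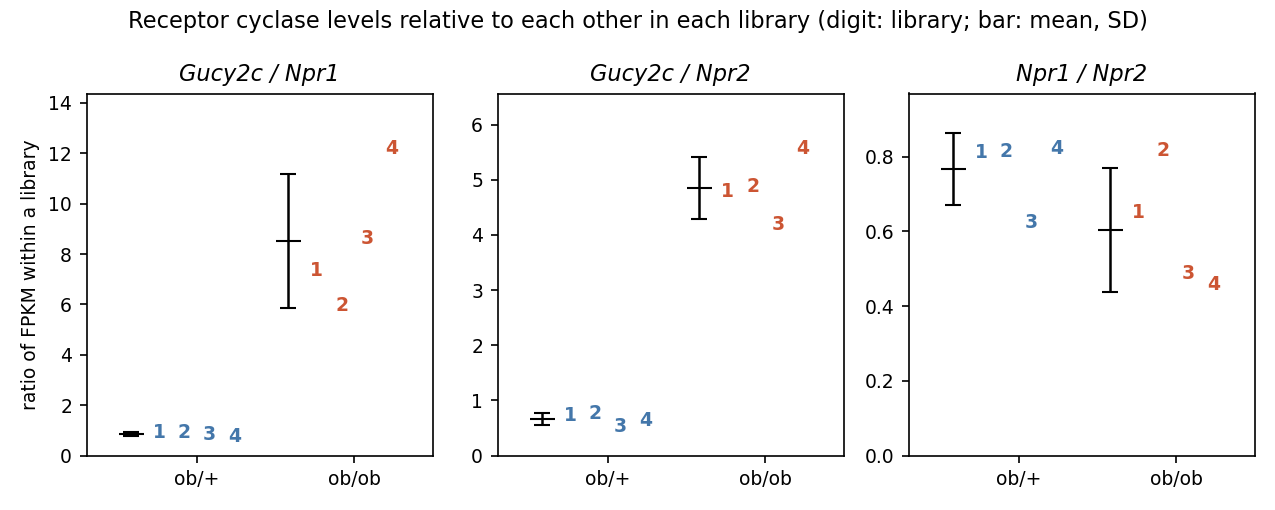
Ratio of FPKM between 2 receptor cyclase genes within each library (linear axes from 0), by genotype; digits are libraries and the bar beside them is the mean with SD. Gucy2c over Npr1 is at most 0.931 in ob/+ and at least 5.98 in ob/ob, whereas the Npr1 over Npr2 ratios overlap.

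Across the 8 libraries the log2 levels of Gucy2c and Npr1 had a Pearson r of -0.77, Gucy2c and Npr2 one of -0.48, and Npr1 and Npr2 one of 0.67. These are descriptions over libraries that fall into 2 genotype groups. For deviations from the genotype means r was 0.32, 0.67 and 0.44, so the negative signs came from the step between genotypes. The acinar-rich library, low for all 3 receptors, is among these points.

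By the same measure the tested genes with the profile most like that of Gucy2c were Cd44 (r = 0.997), a hyaluronan receptor, Tmprss4 (0.997), a membrane serine protease, Egf (0.996), the epidermal growth factor, Dio1 (0.996), a thyroid hormone deiodinase, and Rasgrf2 (0.995), an exchange factor of Ras proteins. Mean Cd44 was 5.77 FPKM in ob/+ and 24.5 in ob/ob, and mean Dio1 was 56.8 and 122.5 FPKM. Their r for deviations from the genotype means was 0.78 to 0.87. The most opposite profiles were those of Cyp4f39 (r = -0.994), Gfra3 (-0.989), Zbtb7c (-0.987), Misp (-0.985) and Tmsb15b2 (-0.984). For deviations from the genotype means their r was -0.60, -0.94, -0.60, -0.28 and -0.34, in that order. Closest to Npr1 were Arhgdia (0.990), Wbp2 (0.988) and Sema3f (0.988), and closest to Npr2 were Smpd3 (0.989), Timm44 (0.983) and Syngr1 (0.983).

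The nearest annotated protein-coding genes on both sides of Gucy2c did not share its gap between genotypes. Atf7ip, a chromatin-associated protein gene, was at 5.99 ± 1.34 FPKM in ob/+ and 7.49 ± 1.67 in ob/ob (SD, n = 4 each; adjusted p = 0.229, limma). Wbp11, a splicing factor gene, was at 22.8 FPKM in ob/+ and 18.3 in ob/ob (limma adjusted p = 0.0804). Plbd1 and H2afj had limma adjusted p-values of 0.946 and 0.643, and E330021D16Rik had no value. Hist4h4, below the filter and not tested, had a mean of 0.35 FPKM in ob/+ and 0.698 in ob/ob. For each of the 5 neighbours with values the genotype groups overlapped. The difference between Gucy2c and its neighbours was not itself tested.

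**Figure D3:**
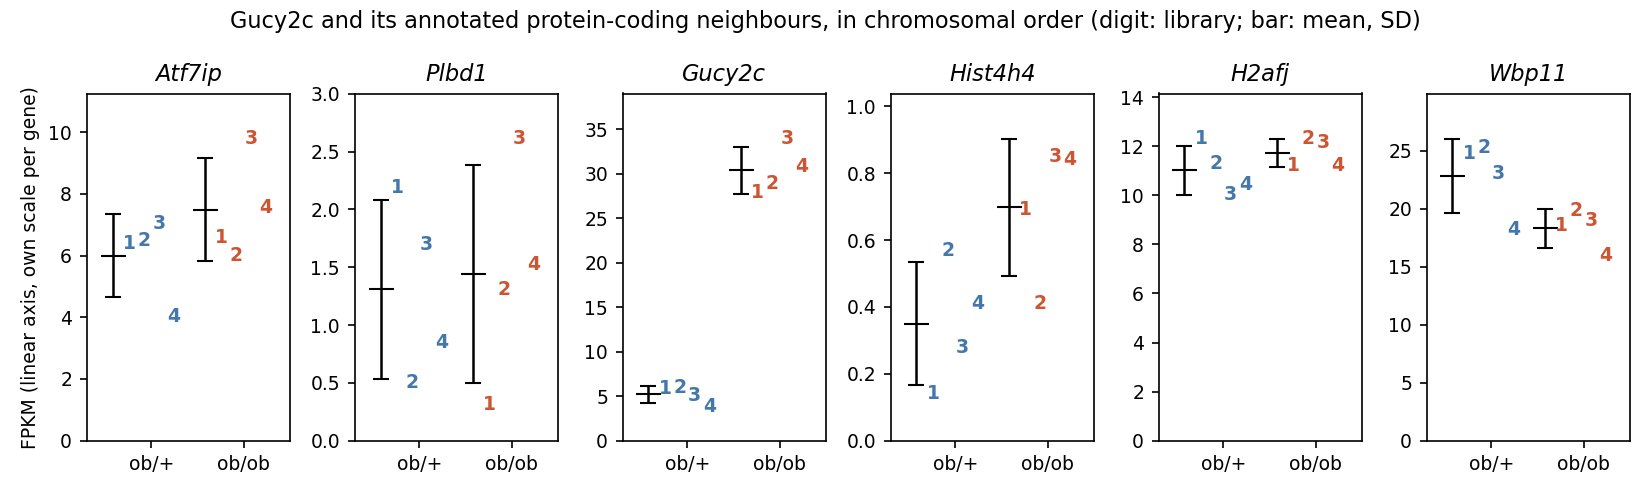
FPKM (linear axis, own scale for each gene) of Gucy2c and 5 neighbouring genes in chromosomal order, by genotype; digits are libraries and the bar beside them is the mean with SD. The groups overlap for each neighbour shown and are apart for Gucy2c.

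The rest of the cGMP pathway was taken from a list of 70 genes that leaves out the 6 members. Of these, 65 had values, 29 passed the filter and 36 lay below it. With limma on log2(FPKM + 1) and Benjamini-Hochberg adjustment over all 11747 genes tested, 4 fell in ob/ob (Gch1, Pde1c, Pde1b and Itpr1) and 0 rose. Pde1b reached 1 FPKM in all 4 ob/+ libraries and in 0 ob/ob libraries, so it passed the filter only through the group where it was high and could only be called lower. The other 3 called genes passed the filter in both groups. At an unadjusted p under 0.05 the counts were 6 lower and 3 higher. The share called was 13.8% of the 29 genes, against 18.8% of all tested genes. All 4 calls were lower, and 10.6% of all genes were called lower and 8.21% higher. The median log2 difference was -0.14 over the 29 genes and -0.07 over all tested genes, and 20 of the 29 differences were negative. Among the 65 genes with values 14 (21.5%) had groups that did not overlap, 9 of them lower and 5 higher in ob/ob, near the 18.0% of all genes with a value.

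The counts depended on the acinar-rich library. Without it, 9 pathway genes fell and 2 rose, 39.3% of the 28 tested, while 41.6% of all tested genes were called. With both that library and the most acinar-rich ob/ob library left out, 8 fell and 1 rose, 33.3% of 27, against 34.7% of all tested genes. The pathway's share called thus stayed close to that of all genes. Gch1, Pde1c and Itpr1 were among the called genes in both cases.

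Ligands and processing enzymes of the natriuretic peptides were mostly near 0. Nppa, the atrial peptide, lay between 0.07 and 0.41 FPKM in ob/+, and between 0.07 and 0.55 in ob/ob. Nppc, the C-type peptide, was at most 0.06 FPKM, and Nppb, the B-type peptide, had no value. The clearance receptor Npr3, which removes natriuretic peptides and has no cyclase domain, lay between 0.11 and 0.15 FPKM in ob/+ and between 0.15 and 0.34 in ob/ob. Thus the ligand genes of all 3 receptors were under 1 FPKM in each library or had no value, while the receptor genes were above it. Corin, a protease that activates the atrial peptide, was at 0.70 FPKM in ob/+ and 0.555 in ob/ob, below the filter. Furin, a general proprotein convertase, was at 20.9 FPKM in ob/+ and 21.4 in ob/ob (limma adjusted p = 0.826), the only 1 of the 8 genes of this sub-list that was tested.

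The other membrane cyclases were lower than the 3 member receptors. Gucy2e, Gucy2f and Gucy2g, known from retina and olfactory tissue, were at most 0.23 FPKM, and Gucy2d had no value. Of their calcium-binding activators, Guca1a was at 0.853 FPKM in ob/+ and 1.28 in ob/ob (log2 difference 0.30, SE 0.12, limma adjusted p = 0.0786). Without the fourth ob/+ library Guca1a passed as higher (0.36), but the remaining ob/+ values (0.91, 0.79 and 0.65) were all under 1 FPKM. There it passed the filter only through ob/ob, so that direction was fixed by the filter. Guca1b, below the filter, was at 0.403 FPKM in ob/+ and 0.193 in ob/ob.

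For the soluble cyclase, the receptor of nitric oxide, neither tested subunit passed the threshold. Gucy1b3, the beta subunit, was at 3.54, 3.51, 3.27 and 2.73 FPKM in ob/+ and 3.64, 3.99, 5.12 and 5.09 in ob/ob. The groups did not overlap, and the log2 difference was 0.35 (SE 0.13, limma adjusted p = 0.0584). It passed as higher in 6 alternatives, among them median centring (limma adjusted p = 0.0048). Gucy1a3, the alpha subunit, was at 2.20 FPKM in ob/+ and 1.74 in ob/ob (log2 difference -0.23, SE 0.12, limma adjusted p = 0.198).

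Of the nitric oxide synthases and the genes that supply their cofactor, 1 of 6 tested genes fell (16.7%, against 10.6% of all tested genes). Gch1, the first enzyme of tetrahydrobiopterin synthesis, was at 34.35, 30.96, 30.83 and 29.17 FPKM in ob/+ and 19.92, 18.45, 20.25 and 19.17 in ob/ob. The groups were far apart compared with the spread inside each. The mean fell from 31.3 ± 2.17 to 19.5 ± 0.804 FPKM (SD, n = 4 each; log2 difference -0.66, SE 0.10, limma adjusted p = 2.76e-05). Pts, the next enzyme of that route, was at 38.2 and 39.4 FPKM (limma adjusted p = 0.775). Nos3, the endothelial synthase, lay between 1.10 and 1.78 FPKM in ob/+, and between 1.02 and 1.64 in ob/ob (limma adjusted p = 0.516).

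Nos1, the neuronal synthase, was below the filter and is named because of its values: 1.63, 1.46, 2.56 and 0.97 FPKM in ob/+ and 0.10, 0.21, 0.47 and 0.32 in ob/ob. Its groups did not overlap. Neuron and glia markers moved in the same direction: of 12 markers 7 were tested, 5 fell (Th, Chrna3, Prph and Sox10 among them) and 1 rose (Snap25). Chrna3 and Sox10 passed the filter only through ob/+, so their direction was fixed by it. Prph, a neuronal intermediate filament, was at 6.0 to 8.45 FPKM in ob/+ and 0.22 to 1.11 in ob/ob, and Chrna3, a ganglionic acetylcholine receptor subunit, at 2.44 to 4.3 and 0.02 to 0.53 FPKM. The summed FPKM of the list, which Snap25 and Th lead, was 97.0 to 124.7 in ob/+ and 106.0 to 115.9 in ob/ob. The part of these cells in the Nos1 values was not tested.

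Among 16 phosphodiesterase genes, 7 were tested and 2 fell, both of the calcium/calmodulin-activated PDE1 family. That is 28.6% of the 7, against 10.6% of all tested genes called lower, and nothing is read from so small a count. Pde1c was at 3.36, 2.84, 3.66 and 3.25 FPKM in ob/+ and 1.29, 1.49, 1.86 and 1.68 in ob/ob. Each ob/ob library was below each ob/+ library. The mean fell from 3.28 ± 0.339 to 1.58 ± 0.245 FPKM (SD, n = 4 each; log2 difference -0.73, SE 0.12, limma adjusted p = 0.000101). Pde1b fell from 1.29 ± 0.172 to 0.663 ± 0.231 FPKM (SD, n = 4 each; log2 difference -0.47, SE 0.13, limma adjusted p = 0.0101), a direction that the filter fixed. Its call was absent in 8 alternatives: in 7, among them leaving out any 1 ob/+ library, it no longer passed the filter, and without the first ob/ob library its limma adjusted p was 0.0525.

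Pde5a, which hydrolyses cGMP specifically, was the most abundant phosphodiesterase gene of the list. It was at 59.51, 79.87, 69.25 and 35.98 FPKM in ob/+ and 38.73, 47.27, 48.95 and 40.65 in ob/ob. The 3 ob/+ libraries other than the acinar-rich one were above all of ob/ob, and the acinar-rich library was below all of ob/ob. The log2 difference was -0.42 (SE 0.24, limma adjusted p = 0.286) and, without the fourth ob/+ library, -0.65 (limma adjusted p = 0.00025). Pde6d, a carrier of lipid-modified proteins, was at 24.4 FPKM in ob/+ and 25.0 in ob/ob (limma adjusted p = 0.853).

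Both genes of cGMP export were tested and neither passed the threshold. Abcc5 was at 17.6 FPKM in ob/+ and 14.9 in ob/ob (limma adjusted p = 0.292), and passed as lower without the fourth ob/+ library (log2 difference -0.35). Abcc4 was at 5.16 and 5.09 FPKM (limma adjusted p = 0.954). None of the 6 cGMP-gated channel genes passed the filter. Cnga3, a cone photoreceptor subunit, averaged 0.35 FPKM in ob/+ and 0.105 in ob/ob, and its partner Cngb3 averaged 0.335 and 0.878 FPKM. For each of these subunits the groups did not overlap, in opposite directions.

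Of 18 genes for the second kinase and for kinase targets, 10 were tested and 1 fell. Itpr1, the IP3-gated calcium release channel, was at 7.89, 8.39, 10.1 and 5.87 FPKM in ob/+ and 3.61, 3.74, 5.65 and 4.38 in ob/ob. The groups came close but did not overlap. The mean fell from 8.06 ± 1.74 to 4.35 ± 0.933 FPKM (SD, n = 4 each; log2 difference -0.76, SE 0.15, limma adjusted p = 0.000654). Prkg2, the membrane-bound cGMP kinase, was at 0.23 to 0.40 FPKM in ob/+ and 0.32 to 0.41 in ob/ob, so both cGMP kinase genes were below 1 FPKM in each library. Rgs2, a G protein regulator that PRKG1 activates, was at 62.9 ± 36.8 FPKM in ob/+ and 130.5 ± 43.0 in ob/ob (SD, n = 4 each), a difference that did not pass the test (limma adjusted p = 0.21; 0.0356 without robust fitting). Gtf2i, a transcription factor gene, was at 52.8 and 41.3 FPKM (log2 difference -0.34, SE 0.12, limma adjusted p = 0.0591), and passed as lower without the fourth ob/+ library (-0.47).

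**Figure D4:**
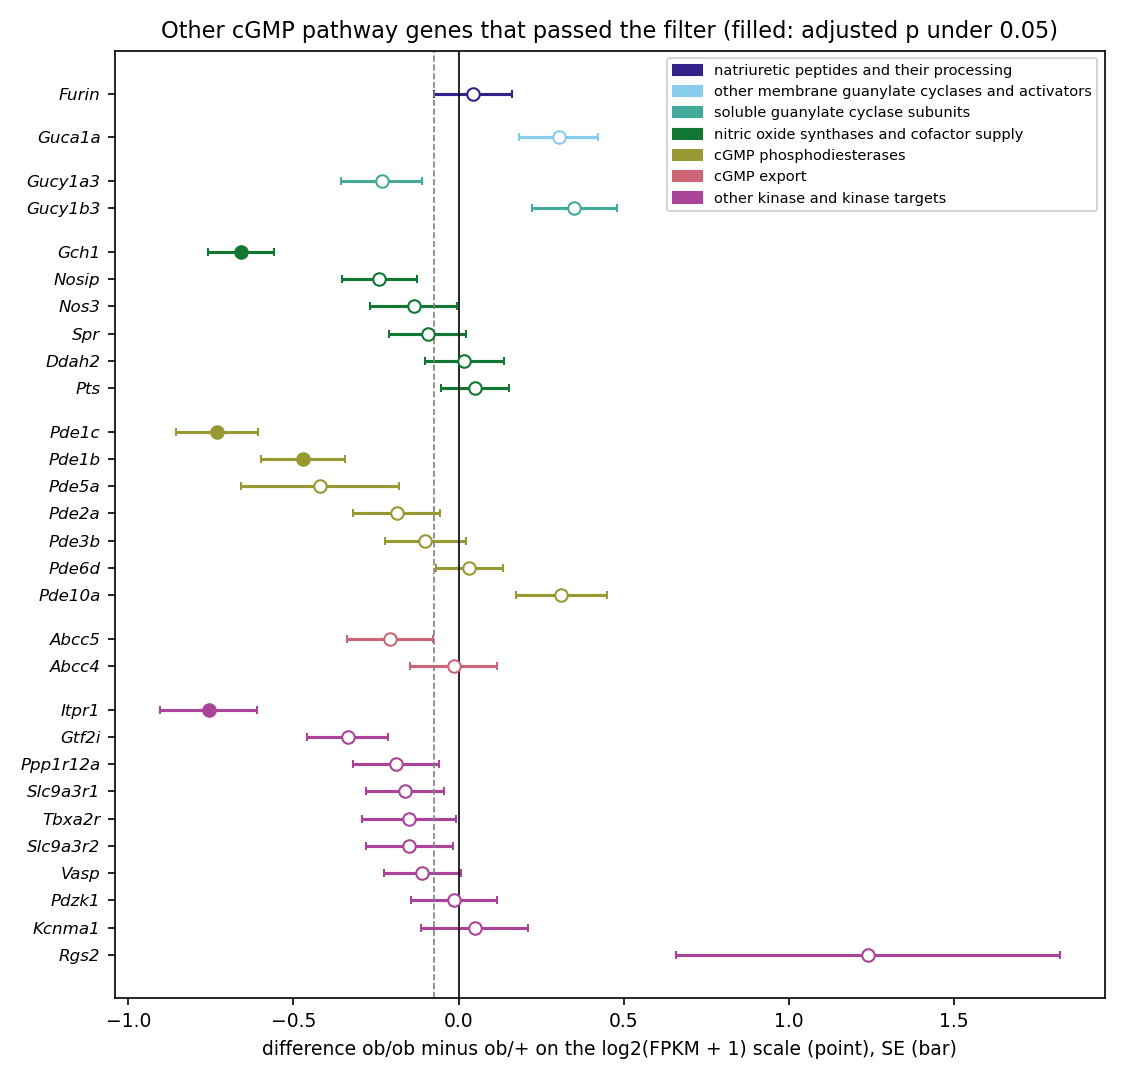
Difference ob/ob minus ob/+ on the log2(FPKM + 1) scale (point) with its SE (bar) for the 29 tested pathway genes, coloured by role; filled points passed an adjusted p of 0.05, and the dashed line is the median of all tested genes, -0.07. The 4 filled points, Gch1, Pde1c, Pde1b and Itpr1, all lie below 0.

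Markers of other cell types that could carry these transcripts were read beside them. Of 14 intestinal epithelium markers 11 had values, and only Vil1 reached 1 FPKM, at 25.77 to 38.44 FPKM in ob/+ and 37.18 to 43.15 in ob/ob. Cdx2 was at most 0.03 FPKM, Fabp2 was at 0 in ob/+ and at most 0.06 in ob/ob, and Cdx1, Sis and Atoh1 had no value. Of 11 duct markers 7 were tested, 2 rose (Krt7 and Spp1) and 1 fell (Tspan8). Their sums, which Krt7 leads, were 174.3 to 208.6 FPKM in ob/+ and 218.4 to 231.7 in ob/ob. The median log2 difference of the 7 was -0.04, and 5 differences were negative. Of 12 macrophage markers 8 were tested and 0 were called. The part of these lists in the Gucy2c values was not tested.

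For Npr1, Npr2 and Prkg1, known from vessels, smooth muscle and connective tissue, the corresponding lists moved differently. Of 14 endothelial markers 13 were tested with 0 called by limma and 0 at an unadjusted p under 0.05, and their summed FPKM was 236.8 to 272.2 in ob/+ and 223.1 to 309.5 in ob/ob. Of 13 smooth muscle and pericyte markers 10 were tested, 2 rose (Acta2 and Rgs5) and 0 fell. Their sums were 63.08 to 79.87 FPKM in ob/+ and 84.18 to 102.7 in ob/ob. Rgs5 leads these sums, at 28.45 to 36.66 FPKM in ob/+ and 47.07 to 55.43 in ob/ob. The list as a whole was not higher: the median log2 difference of the 10 tested markers was -0.0066, and 5 differences were negative. Of 8 fibroblast markers 7 were tested and 5 fell (Dpt and Fbln1 passed the filter only through ob/+), with sums of 38.94 to 55.85 FPKM in ob/+ and 8.32 to 29.29 in ob/ob.

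Islet cell types also differed in their share of summed FPKM. The alpha cell list took 2.95 to 3.70% in ob/+ and 0.947 to 1.26% in ob/ob, a share that is mostly Gcg; of its 7 genes 5 fell and 2 rose (Gc and Ttr). The delta cell list took 0.643 to 0.728% and 0.109 to 0.147%, and the PP cell list 0.786 to 1.36% and 0.287 to 0.496%. The part of these lists in the values of the 6 genes was not tested.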

How the data were processed

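Islet RNA of 8 libraries, 4 per labelled genotype, was read from the deposited values per gene. Their unit was inferred as FPKM: the values deposited by the authors have 2 decimals, and their sums differ between libraries. Per the submitters' processing notes, the tools included Trimmomatic 0.36 and DESeq2 1.20.0, and the builds named were GRCm38 and mm10. Which program aligned or quantified the reads is not given in the sources used here. Because FPKM are relative to the library, abundant insulin or enzyme transcripts lower the values of the other genes. Absolute depth is unknown; relative depth, roughly estimated from steps of low values (phase cosine averaging 0.483 to 0.581, exact steps giving 1), was 0.983 to 1.034. Of 20715 genes listed, 3314 had no value and 12 carried date-like names.

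The model used log2(FPKM + 1), a pseudocount of 1, for genes reaching 1 FPKM in 4 or more libraries. The two-sided moderated test of limma 3.58.1 (R 4.3.3; robust eBayes with a mean trend, statmod 1.5.0) was applied with a Benjamini-Hochberg adjusted p under 0.05 over all tested genes. Fold values are ratios of mean FPKM; differences on the log2(FPKM + 1) scale understate the change of low genes. The scripts were tested on simulated data. A change of 0.5 on the log2 scale was called for 55.6% of 99 changed genes, and a change of 1.0 for 97.9% of 96. Of 159 calls 10 were false. Differences of 0.5 or less can thus go uncalled. The members and lists were chosen with earlier results of these data known. Named pathway genes were those past the threshold and up to 2 of the highest mean FPKM in each sub-list; other pathway genes are named for their role, and Nos1 was chosen after its values were seen. Intervals from counts are not given, as FPKM carries none. Libraries were not duplicates (r of 0.978 to 0.993 within and 0.955 to 0.965 between genotypes). Alternatives covered pseudocount, filter, scaling, robust fitting, a replicate block and leaving out libraries.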

Additional observations from a re-analysis of the deposited data

Results flagged for a closer look

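In 4 of 48 groups of 4 libraries checked, 1 library lay far from the other 3 relative to the range of its group. Chance alone marks about 1 in 20 groups of normally distributed values, a rate that does not hold for groups with many values of 0. Npr2 was at 8.09 FPKM in the third ob/ob library and at 5.54 to 5.91 in the others. Guca2a was at 0.33 FPKM in the second ob/+ library and at 0 in the others, so any value above 0 there would have been marked. Library 4 of ob/+, the acinar-rich one, was apart for Cnga3, at 0.25 FPKM against 0.38 to 0.39, and for Gtf2i, at 38.92 FPKM against 56.38 to 58.11.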

How the results depend on the processing

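Gucy2c was higher and Npr1, Npr2 and Prkg1 were lower in ob/ob under each of the 19 alternatives run. The Gucy2c difference was 2.12 with acinar genes left out of the scaling (2.23 to 2.41 when leaving out 1 library). Prkg1, at -0.19, became -0.47 and -0.29 with pseudocounts of 0.1 and 0.5, -0.12 with median centring and -0.28 with acinar genes left out of the scaling. Npr1 ran from -0.78 to -0.43 and Npr2 from -0.50 to -0.17.

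Pathway genes called higher, 0 as reported, were 2 without a filter, 2 with median centring, 3 with upper-quartile scaling, 2 when scaling omitted the 10 most abundant genes, 1 without robust fitting and 0 to 2 when leaving out 1 library. Those called lower, 4 as reported, were 7 without a filter, 2 with a filter of 5 FPKM, 18 when scaling omitted acinar genes and 3 to 9 when leaving out 1 library. All calls, 2208 as reported, were 3429 with median centring, 3465 with upper-quartile scaling, 6525 with acinar genes left out, and 1434 (without ob/+ replicate 1) to 4832 (without ob/+ replicate 4). Without both ob/+ 4 and ob/ob 1, a choice made after seeing the data, they were 4000, with 1 pathway gene higher and 8 lower. Scaling moved the median of all genes from -0.07 to -0.29 (acinar genes left out) or 0.03 (10 most abundant left out), and the share of calls that were higher from 43.7% to 7.89%, 67.3% or, with median centring, 53.2%; the cause was not tested. Pde6d turned from 0.03 to -0.22 with acinar genes left out. Of 273 values of named pathway genes under alternatives, 248 kept direction and side of the threshold, 23 newly passed it, 1 lost it and 1 reversed; in 12 further cases, 7 of them Pde1b, the gene was no longer tested.

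Same-numbered libraries of the 2 genotypes did not deviate together throughout (r of -0.22, 0.21, 0.17 and 0.12). For different-numbered libraries r was -0.19 to 0.19. So few values cannot decide whether the numbers pair the libraries, and the main model assumed no pairing. With the replicate block 2674 genes were called, and 5 pathway genes fell, Gtf2i (adjusted p = 0.013, limma) beside the 4 reported, and 0 rose. Unknown depth limits Guca2a, Prkg1 and the other genes below 1 FPKM most.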
